A study of Danio rerio with 12 samples.

Results

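The phototransduction cascade genes other than the opsins were followed in zebrafish larvae from parents fed methylmercury. They were taken as all genes whose symbol starts with a cascade name, among them gnat1, gnat2, gnb1, gnb3, gngt, pde6, cnga1, cnga3, cngb1, grk1, grk7, arr3, saga, sagb, guca1, gucy2, gc2, gc3, rcv, pdca, pdcb, rgs9, prph2, rom1 and irbp, together with slc24a1 and slc24a2. The rule found 47 of the 32674 genes in the table, and 45 of them reached the minimum mean of 10 scaled counts that was needed for a test. The other 2, gnb1l and gucy2g, lay between 0 and 11.1 scaled counts in every library.

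RNA was measured in 12 libraries of F1 embryos (EK strain) taken 5 days post-fertilisation. The parents had been fed diets with 0 (control), 1, 3 or 10 ppm methylmercury (MeHg) over their whole life cycle, with 3 libraries for each diet, and the offspring themselves are described only by the parental diet. Each library was made from a pool of 5 whole embryos, so retina, pineal organ and all other tissues are mixed. Whether pools of 1 parental diet had different parents or clutches is not in the labels. The p-values thus cover only the spread among these pools, which may be technical.

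In rods and cones, light-activated opsin switches on the G protein transducin, which releases the phosphodiesterase PDE6 from inhibition, and the fall in cyclic GMP closes cyclic nucleotide-gated channels. Opsin kinases, arrestins and the RGS9 complex end the response, and calcium sensors acting on guanylate cyclases restore cyclic GMP. Rods and cones build most of these steps from different genes, and in zebrafish larvae at this age cones carry most of the vision while rods are still maturing. From such background knowledge, though with earlier results of these data known, 10 of the tested genes were classed as rod forms, 13 as cone forms and 20 as used by both or not clearly assigned. The least certain cone forms are guca1d and guca1g. The remaining 2 tested genes, pde6d and gucy2c, and the untested gnb1l and gucy2g carry cascade names but are not specific to photoreceptors. The cone genes pde6c and pde6h, the rod gene gnb1b and any member without its current symbol were not analysed here, with 3 exceptions given below.

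The libraries held between 5.63 and 11.8 M (mega) fragments. Within diets they differed in the levels of clock genes, called clock state here. Neither collection time nor batch is among the sample labels used here. The clock repressor gene per1b had 549 to 864 scaled counts in 4 libraries (control 2 and 3, and 1 ppm 2 and 3) and 49.4 to 78.6 in the other 8. A clock score, the first principal component of 43 clock genes, was positive in those 4 libraries and negative in the 8, which hold control 1, 1 ppm 1 and all 6 libraries of 3 and 10 ppm. Diet and clock state are therefore partly confounded, and for members that differ between these 2 sets of libraries the estimates are also given without the 4 libraries. That leaves control 1 as the only control, assumed to vary like the 3 and 10 ppm libraries. The first principal component of all genes tested, with 34.3% of the variance, also separated the 2 sets of libraries. It was 12.6 to 65.6 in the 4 and -31.6 to -1.43 in the other 8. The sets thus differ beyond clock genes, and what sets them apart was not tested.

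Transcript levels per length showed a photoreceptor set led by cone genes. In control libraries the most abundant members on the FPKM scale (fragments scaled for gene length and library size) were the cone transducin alpha gene gnat2 with 532 ± 88.0, the cone arrestin gene arr3a with 510.2 ± 226 and the cone transducin beta gene gnb3b with 507 ± 208 (SD, n = 3). The rod transducin alpha gene gnat1 averaged 97.9 ± 21.1 FPKM in the same libraries, and the rod transducin gamma gene gngt1 averaged 245 ± 43.7 FPKM. Set pair by pair, the cone form was the more abundant in 5 of the 6 cone and rod pairs with both genes in the table. In control libraries the ratio of FPKM values was 4.51 to 7.17 for gnat2 to gnat1, 6.90 to 16.2 for arr3a to saga and 4.22 to 10.0 for grk7a to grk1a. It was 3.81 to 10.7 for slc24a2 to slc24a1 and 1.85 to 2.75 for cnga3a to cnga1. The exception was the transducin gamma pair, where the ratio of gngt2a to gngt1 was 0.256 to 0.458. The arrestin pair used saga, which averaged 39.1 ± 5.90 FPKM in control libraries. The other rod arrestin gene, sagb, averaged 233 ± 62.3 FPKM there, nearer to arr3a, and was not taken as a pair. Expression of both gnat1 and gnat2 in every library shows that rod and cone transcripts were sampled in all 12 pools.

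With all 12 libraries, the steps of the cascade, and its rod and cone forms, differed in their estimates. At 10 ppm, cone genes that shut off the light response or feed calcium back on it, such as arr3a, the opsin kinase grk7a and the calcium sensors guca1c and guca1g, had lower estimates than in control by more than 1 log2 unit. Cone transducin genes gave -0.30 for gnat2, -0.24 for gnb3a, 0.31 for gnb3b and 0.73 for gngt2a. Without the 4 libraries of high clock score the positive estimates of gnb3b and gngt2a were not kept. The estimates of arr3a, grk7a, guca1c and guca1g were then below 0 by less than 1 log2 unit, as given below. Those of gnat2 and gnb3a were then also below 0, against control 1, their highest library at 6878 and 419 scaled counts. Whether the steps still differed without the 4 libraries was not tested. Cone channel genes gave -0.29 for cnga3a and -0.92 for the low gene cnga3b. Rod forms lay mostly near the control level, with a median log2 difference of -0.18 over 10 genes against -0.91 over 13 cone forms and 0.01 over all 18390 genes tested. The cone median was -0.35, against -0.30 for rod forms, without the 4 libraries of high clock score, and -0.30 over the 9 cone forms with a mean of at least 50 scaled counts. None of the 45 members passed the limma test at 10 ppm against control after adjustment over all genes, where 0.0% of all genes passed. At an unadjusted p below 0.05, 17 members were past the threshold, against 5.71% of all genes. In whole embryos, fewer cells of a type and less RNA per cell cannot be told apart. The differences below are on the log2(scaled count + 1) scale, which understates those of low genes.

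**Figure D1:**
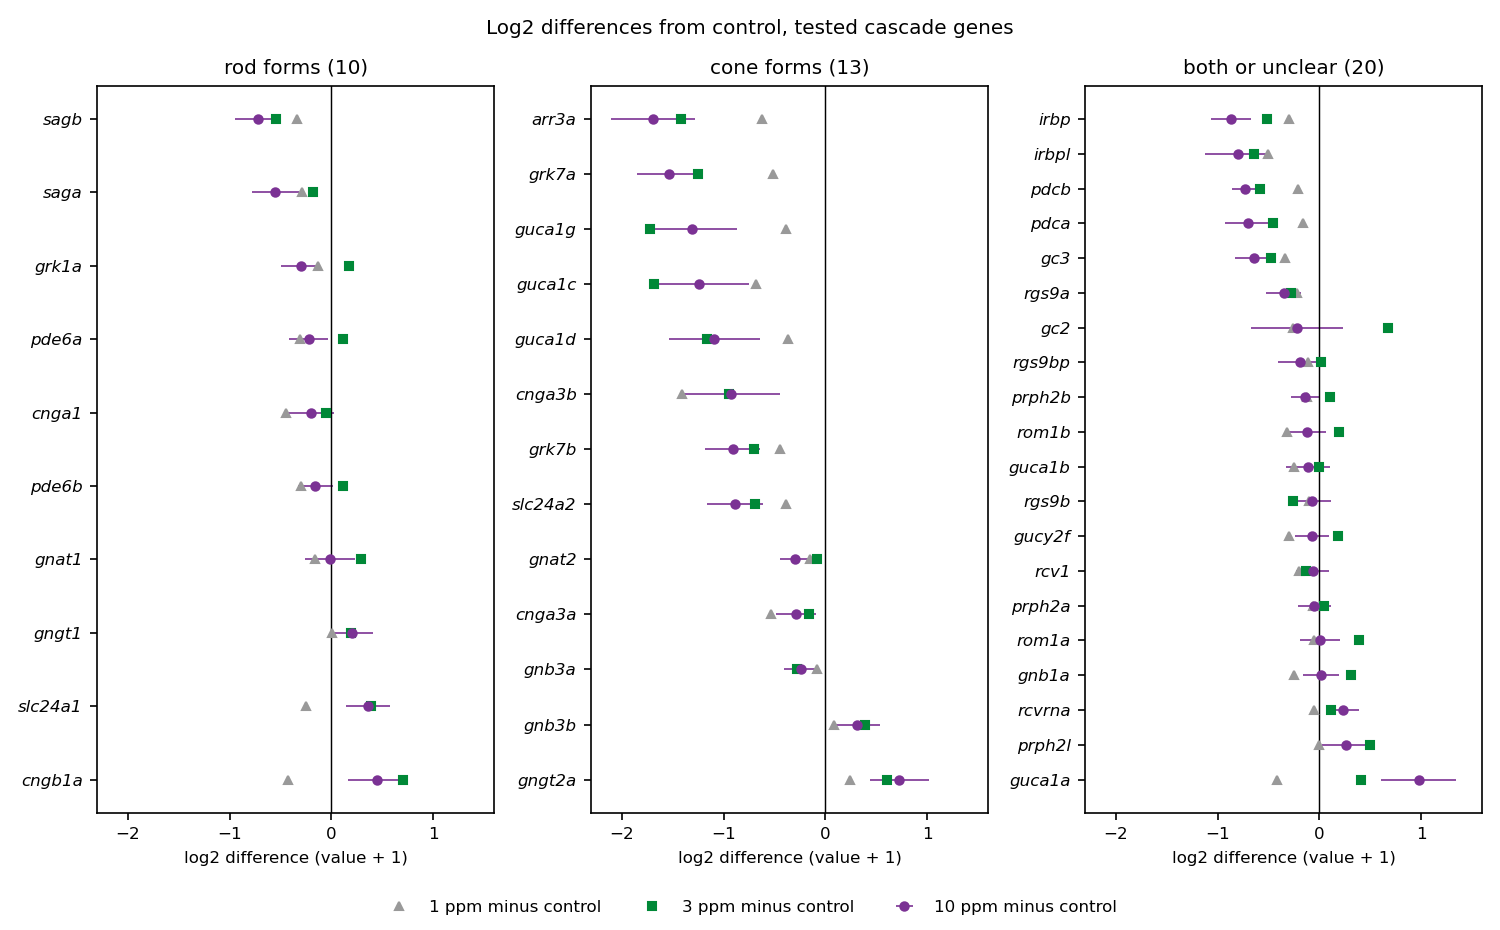
Estimated log2 differences of 43 tested cascade genes from control, with rod forms, cone forms and genes of both or unclear type in 3 panels. Triangles give 1 ppm, squares 3 ppm and circles 10 ppm minus control, and the lines through the circles are 1 SE on either side. At 10 ppm, 8 cone forms lie between -0.89 and -1.69. The cone forms gnat2, cnga3a, gnb3a, gnb3b and gngt2a lie between -0.30 and 0.73, and the rod forms between -0.72 and 0.45.

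Of the 17 members past the unadjusted threshold at 10 ppm, 15 were lower than control (background 2.82%) and 2 were higher (background 2.89%). The 15 comprised 7 of 13 cone forms, 2 of 10 rod forms, 5 of 20 genes of both or unclear type and pde6d. Leaving out guca1d and guca1g, it was 5 of 11 cone forms at 10 ppm and also at 3 ppm, with a cone median of -0.89 at 10 ppm. At 3 ppm against control no member passed the adjusted test, where 0.0163% of all genes passed. There, 13 members were past the unadjusted threshold against 10.4% of all genes, with 12 lower (5.86% of all genes) and 1 higher (4.54%). The 12 comprised 7 of 13 cone forms, 1 of 10 rod forms, 3 of 20 others and pde6d. At 1 ppm against control no member passed (0.0% of all genes), and 2 were past the unadjusted threshold, both cone channel genes, against 1.96% of all genes. By limma-voom, the other tool run, the number passing was also 0 at each of the 3 diets. The 3 comparisons share the control libraries, so they are not independent of each other.

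The trend over the 4 diets gave the only member that passed. The slope on the ranks of the diets passed for pdcb, a phosducin gene whose protein binds the transducin beta and gamma subunits, and for 0.0218% of all genes. Unadjusted, 20 members were past the threshold (10.3% of all genes), 16 with a falling slope (5.24%) and 4 with a rising one (5.07%). The F-test for any difference among diets passed no member, with 0.0163% of all genes passing, and 15 members were past its unadjusted threshold, against 8.59% of all genes.

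The phosducin gene pdcb had scaled counts of 829, 912 and 914 in the control libraries, 695, 789 and 818 at 1 ppm, 622, 597 and 552 at 3 ppm, and 612, 451 and 544 at 10 ppm. All 6 libraries of 3 and 10 ppm lay below all 6 of control and 1 ppm, and the 1 ppm libraries lay below the control libraries. Its level fell by 0.26 per diet step (SE 0.04, adjusted p = 0.0426 by limma), and at 10 ppm it differed from control by -0.73 (SE 0.13, adjusted p = 0.202). Within control and within 1 ppm, pdcb was higher in libraries 2 and 3, where the clock score was high, than in library 1. Without the 4 libraries of high clock score the slope was -0.21, but only 1 control is left there, so that fit cannot decide whether the call holds. The call was lost when each of 11 of the 12 libraries was left out in turn, with limma adjusted p-values of 0.0518 to 0.303. The second phosducin gene, pdca, did not pass and had log2 differences of -0.45 at 3 ppm and -0.70 at 10 ppm against control, and it too did not overlap with control at 10 ppm.

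**Figure D2:**
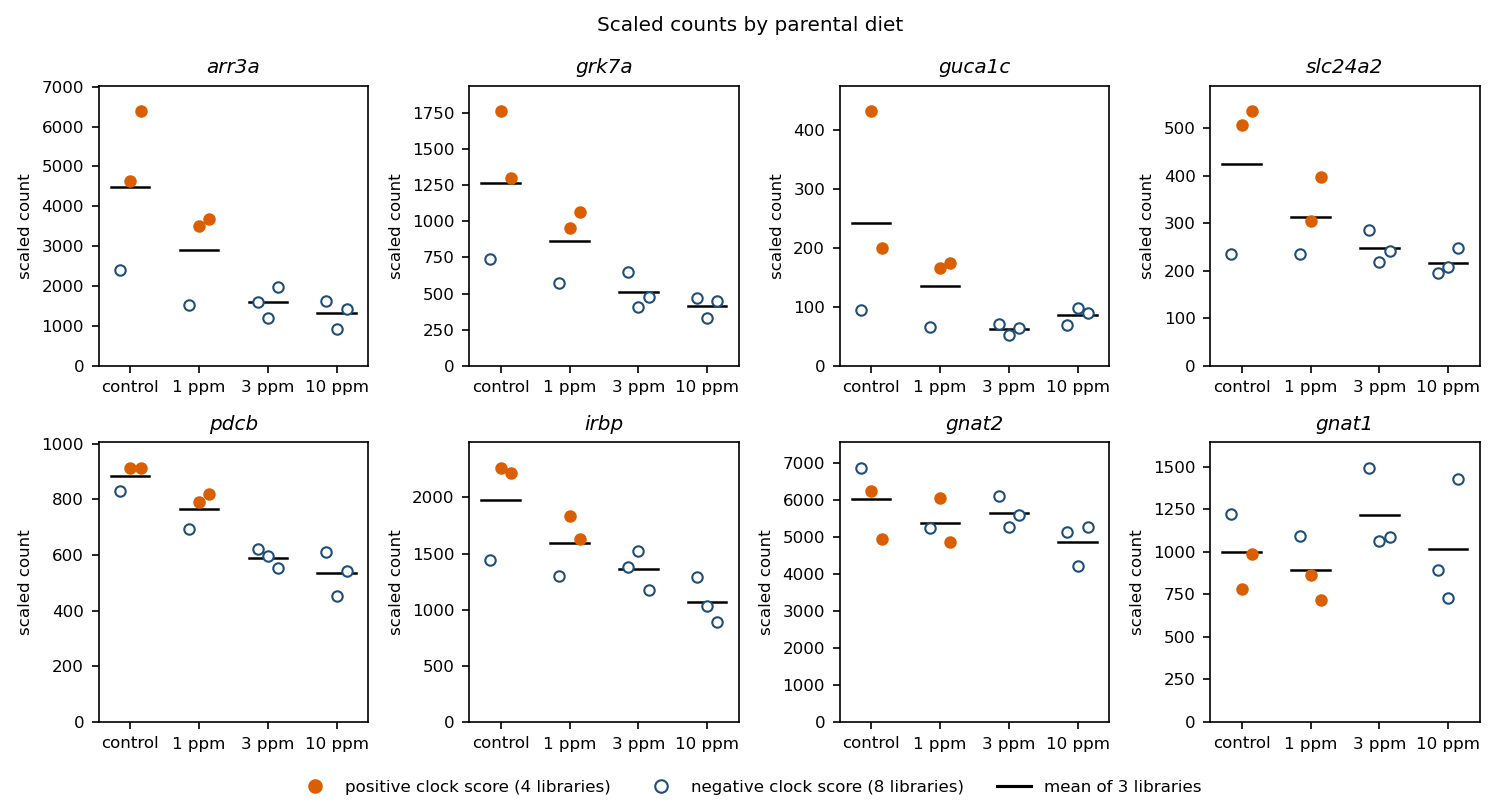
Scaled counts of 8 cascade genes by parental diet, 1 point per library, with horizontal lines at the mean of 3 libraries. Filled points are the 4 libraries with a positive clock score and open points the 8 with a negative score. For arr3a, grk7a, guca1c, slc24a2 and irbp every filled point lies above every open point, whereas the points of gnat2 and gnat1 are mixed.

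Among transducin genes, the alpha subunits overlapped with control at every diet when all 12 libraries were used. The cone form gnat2 had scaled counts of 6878, 6255 and 4937 in the control libraries, 5242, 6068 and 4873 at 1 ppm, 6119.6, 5272 and 5591 at 3 ppm, and 5130.5, 4207 and 5276 at 10 ppm. Its groups overlapped at every diet, and its difference at 10 ppm against control was -0.30 (SE 0.15, adjusted p = 0.851). Control 1, the only control of low clock score, was the highest of the 12 libraries for gnat2, above all 10 ppm libraries. The gnat2 estimate without the 4 libraries of high clock score is not given here. The rod form gnat1 had 1221, 784 and 985 in the control libraries, 1092, 865 and 719.6 at 1 ppm, 1495, 1062 and 1085 at 3 ppm, and 894, 727 and 1425 at 10 ppm. It was no lower at 10 ppm than in control as a group, at -0.01 (SE 0.25, adjusted p = 0.997), and both the lowest and the highest of the 6 values in that comparison were at 10 ppm.

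The cone gamma subunit gngt2a had 357, 174 and 156 in the control libraries, 363, 218 and 202 at 1 ppm, 303, 283 and 402 at 3 ppm, and 331, 371 and 363 at 10 ppm. Control libraries 2 and 3 were low while control 1 was within the range of the 10 ppm libraries, so the groups overlapped, and the difference at 10 ppm was 0.73 (SE 0.29, adjusted p = 0.822). This estimate has the opposite sign to most cone forms, but the 4 libraries of high clock score were the 4 lowest of the 12, and without them it was -0.01 at 10 ppm and -0.13 at 3 ppm. The rod gamma subunit gngt1 had 1077, 739.9 and 833 in the control libraries, 1058, 712 and 889 at 1 ppm, 1134, 897 and 969 at 3 ppm, and 1075, 757 and 1251 at 10 ppm. These values overlapped between all diets, with a difference of 0.21 (SE 0.20, adjusted p = 0.884) at 10 ppm. Beta subunits gave -0.24 for the cone gene gnb3a, 0.31 for the cone gene gnb3b and 0.02 for the widely expressed gnb1a, and none of the 3 passed. The estimate of gnb3b also changed sign without the 4 libraries, to -0.31.

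The catalytic subunits of the rod phosphodiesterase, which hydrolyse cyclic GMP, overlapped with control at 10 ppm when all 12 libraries were used. The gene pde6a had 308, 209.8 and 246 in the control libraries, 242, 193 and 179 at 1 ppm, 296, 251 and 272 at 3 ppm, and 215, 167 and 279 at 10 ppm. Its control and 10 ppm values overlapped, and it differed by -0.22 (SE 0.19, adjusted p = 0.879) at 10 ppm against control and by -0.33 (SE 0.19, adjusted p = 1.000) at 10 ppm against 3 ppm. Its partner pde6b ranged from 213 to 343 over the 12 libraries, with -0.16 at 10 ppm against control. For both genes control 1, the only control of low clock score, was the highest control and lay above all 10 ppm libraries. Their estimates without the 4 libraries of high clock score are not given here. The gene pde6d, named with this family but coding for a widely expressed carrier of prenylated proteins, had 134, 118 and 152 in the control libraries, 119, 130.1 and 161 at 1 ppm, 102, 81.2 and 82.4 at 3 ppm, and 121, 82.4 and 79.1 at 10 ppm. Its 3 ppm libraries all lay below its control libraries, with a difference of -0.61 (SE 0.19, adjusted p = 0.396), and at 10 ppm 1 library was within the control range.

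All 4 channel genes of rods and cones had estimates below 0 at 1 ppm against control, and none passed. The cone channel gene cnga3b, a low gene, had 9.67, 36.4 and 18.8 in the control libraries, 4.25, 6.76 and 9.36 at 1 ppm, 15.5, 9.02 and 5.64 at 3 ppm, and 6.61, 11.3 and 11.4 at 10 ppm. Its 1 ppm libraries lay below all control libraries, while 3 and 10 ppm overlapped with control, and control 2 was far above the other 11 libraries. Its difference at 1 ppm against control was -1.41 (SE 0.47, adjusted p = 1.000), the smallest p among members in that comparison. At 10 ppm it was -0.92, and -0.02 without the 4 libraries of high clock score. The more abundant cone channel gene cnga3a had 148, 157 and 122 in the control libraries, 97.8, 128 and 73.7 at 1 ppm, 140.0, 113 and 127 at 3 ppm, and 129.8, 100.1 and 120.1 at 10 ppm. Of the 1 ppm libraries, 1 lay inside the control range, and the difference was -0.53 (SE 0.20, adjusted p = 1.000) at 1 ppm and -0.29 (SE 0.20, adjusted p = 0.856) at 10 ppm. The rod channel gene cnga1 had 58.9, 50.4 and 60.05 in the control libraries, 57.0, 37.2 and 32.8 at 1 ppm, 64.9, 54.1 and 45.7 at 3 ppm, and 42.2, 48.4 and 56.9 at 10 ppm, with overlap at each diet and -0.44 (SE 0.23, adjusted p = 1.000) at 1 ppm. The rod channel beta subunit gene cngb1a had 96.7, 67.1 and 45.7 in the control libraries, 79.1, 40.6 and 37.4 at 1 ppm, 102, 107 and 119 at 3 ppm, and 81.0, 91.2 and 104 at 10 ppm. All 3 libraries of 3 ppm were above the controls, with a difference of 0.70 (SE 0.29, adjusted p = 0.441), but the 4 libraries of high clock score were the 4 lowest of the 12. Without those 4 the difference was 0.18 at 3 ppm and, with its sign changed, -0.08 at 10 ppm in place of 0.45.

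The sodium, calcium and potassium exchangers, which remove calcium from the outer segment, had estimates of opposite sign. The cone form slc24a2 had 235, 506 and 535 in the control libraries, 236, 305 and 398 at 1 ppm, 286, 218 and 240.3 at 3 ppm, and 196, 208 and 247 at 10 ppm. Control libraries 2 and 3 were the highest of the 12, and control 1 was inside the range of the 3 and 10 ppm libraries, so the groups overlapped at 10 ppm, where the difference was -0.89 (SE 0.28, adjusted p = 0.713). The rod form slc24a1 had 52.7, 45.5 and 47.5 in the control libraries, 57.8, 35.5 and 32.8 at 1 ppm, 70.0, 64.4 and 57.5 at 3 ppm, and 63.6, 54.1 and 71.1 at 10 ppm. Its 10 ppm libraries were all above its control libraries, with a difference of 0.36 (SE 0.22, adjusted p = 0.851), and so were its 3 ppm libraries. Within the libraries of low clock score the slc24a2 difference at 10 ppm was -0.13 and the slc24a1 difference was 0.24.

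At 10 ppm the largest cone differences were in genes that shut off the response. Cone arrestin, arr3a, which caps phosphorylated cone opsins, had 2404, 4637 and 6379.5 in the control libraries, 1519.7, 3505 and 3676 at 1 ppm, 1605, 1188 and 1972 at 3 ppm, and 1620.1, 910.0 and 1422 at 10 ppm. All 10 ppm libraries and all 3 ppm libraries were below the lowest control library, and control 2 and 3 were 4637 and 6379.5 against 2404 in control 1. The differences were -1.69 (SE 0.41, adjusted p = 0.538) at 10 ppm and -1.41 (SE 0.41, adjusted p = 0.396) at 3 ppm. Rod arrestins were nearer to control. The gene saga had 402, 290.2 and 522 in the control libraries, 377, 269.5 and 328 at 1 ppm, 409, 294 and 349 at 3 ppm, and 232, 229 and 365 at 10 ppm, which overlapped, with -0.55 (SE 0.23, adjusted p = 0.822) at 10 ppm. The other, sagb, had 728, 522 and 787 at 10 ppm and 901, 1011 and 1474 in control libraries, which did not overlap, with -0.72 (SE 0.22, adjusted p = 0.713). Without the 4 libraries of high clock score the 10 ppm difference was -0.91 for arr3a, -0.58 for saga and -0.43 for sagb.

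Cone opsin kinase, grk7a, followed arr3a. It had 739.8, 1762 and 1300.5 in the control libraries, 574, 956 and 1068 at 1 ppm, 647, 407 and 476 at 3 ppm, and 469, 332 and 446 at 10 ppm. Each library of 3 and 10 ppm was below each control library, and the difference was -1.54 (SE 0.31, adjusted p = 0.525) at 10 ppm and -1.25 (SE 0.31, adjusted p = 0.382) at 3 ppm. The second cone kinase gene, grk7b, had 30.8, 44.1 and 38.5 in the control libraries, 23.8, 36.3 and 23.4 at 1 ppm, 24.3, 20.0 and 23.7 at 3 ppm, and 24.0, 13.7 and 22.2 at 10 ppm. It too lay below all controls at both diets, with -0.91 (SE 0.27, adjusted p = 0.713) at 10 ppm. For grk7a and grk7b the 10 ppm differences were -0.85 and -0.64 without the 4 libraries. The rod kinase gene grk1a had 228, 229 and 299 in the control libraries, 253, 212 and 222 at 1 ppm, 354, 243 and 263 at 3 ppm, and 174, 178 and 269 at 10 ppm. The diets overlapped, and its difference at 10 ppm against control was -0.30 (SE 0.19, adjusted p = 0.851). The RGS9 genes, which speed up the GTPase of transducin, and their anchor rgs9bp gave -0.35 for rgs9a, -0.08 for rgs9b and -0.19 for rgs9bp at 10 ppm, and none passed.

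Calcium feedback genes differed among themselves. The cone guanylate cyclase activator gene guca1c had 94.0, 432 and 199 in the control libraries, 66.3, 166 and 174 at 1 ppm, 70.8, 52.8 and 63.2 at 3 ppm, and 69.4, 97.7 and 89.3 at 10 ppm. Its 3 ppm libraries were below all controls, its 10 ppm libraries overlapped with control 1, and the difference was -1.68 (SE 0.49, adjusted p = 0.396) at 3 ppm and -1.24 (SE 0.49, adjusted p = 0.822) at 10 ppm. The activator gene guca1g, a less certain cone form, had 35.1, 83.2 and 72.6 in the control libraries, 30.6, 54.1 and 56.2 at 1 ppm, 22.1, 15.5 and 15.2 at 3 ppm, and 50.4, 17.8 and 14.2 at 10 ppm. It was below all controls at 3 ppm, where the difference was -1.73 (SE 0.44, adjusted p = 0.382), and 1 library of 10 ppm was inside the control range. For guca1c and guca1g the differences without the 4 libraries of high clock score were -0.60 and -0.98 at 3 ppm and -0.15 and -0.56 at 10 ppm. Another activator, guca1d, counted as a cone form with the same doubt as guca1g, was low, at 4.51 to 31.5 scaled counts, with -1.16 at 3 ppm and -1.09 at 10 ppm, and -0.22 and -0.15 without the 4 libraries. The activators guca1a and guca1b, not assigned to 1 cell type here, gave 0.98 and -0.11 at 10 ppm. For guca1a the values were 18.2, 45.2 and 42.1 at 10 ppm and 12.3, 21.0 and 16.1 in control, with overlap.

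Of the cyclase genes, gc3 had 243, 417 and 384 in the control libraries, 229.6, 299.9 and 278 at 1 ppm, 290.4, 211 and 236 at 3 ppm, and 226, 233 and 195 at 10 ppm. Its 10 ppm libraries were below all controls, with -0.64 (SE 0.19, adjusted p = 0.713), and control 1 was again the control library nearest to them. Its difference was -0.16 at 10 ppm and 0.01 at 3 ppm without the 4 libraries of high clock score. The cyclase gene gucy2f had 87.9, 63.6 and 76.2 in the control libraries, 61.2, 62.5 and 59.7 at 1 ppm, 102, 79.2 and 78.4 at 3 ppm, and 74.4, 70.2 and 70.6 at 10 ppm. It was below all controls at 1 ppm, with -0.30 (SE 0.17, adjusted p = 1.000), and below all 3 ppm libraries at 10 ppm. The cyclase gene gc2, at 4.68 to 22.8 scaled counts, had 7.44, 8.88 and 17.1 at 10 ppm and 22.8, 18.0 and 20.3 at 3 ppm, without overlap, and a difference of -0.89 (SE 0.45, adjusted p = 1.000). It had 19.3, 9.79 and 9.86 in the control libraries and 19.6, 10.98 and 4.68 at 1 ppm. Recoverins are calcium sensors that restrain opsin kinase. Of them rcv1 gave -0.06 and rcvrna 0.23 at 10 ppm, whereas the recoverin gene rcvrn3, described below, had a lower estimate.

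The retinoid carrier of the interphotoreceptor matrix, irbp, had 1445, 2265 and 2215 in the control libraries, 1300.2, 1836 and 1633 at 1 ppm, 1380.5, 1527 and 1179.6 at 3 ppm, and 1295, 1029.5 and 893 at 10 ppm. All 10 ppm libraries lay below all controls, whereas 1 library of 3 ppm was above control 1, and the difference at 10 ppm was -0.87 (SE 0.20, adjusted p = 0.525). Its slope over diets was -0.28 (SE 0.06, adjusted p = 0.170). Its difference at 10 ppm was -0.45 without the 4 libraries of high clock score. The low gene irbpl, at 8.11 to 21.1 scaled counts, was below all controls at both 3 and 10 ppm, with -0.80 at 10 ppm.

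The tetraspanin genes prph2 and rom1, which shape the rims of outer segment discs, differed by at most 0.27 log2 units from control at 10 ppm. At 3 ppm, rom1a had 435, 379 and 376 against 349, 255 and 310.1 in control libraries, and rom1b had 346, 283 and 312 against 271, 269 and 281. Both were above all controls there, with 0.39 (SE 0.19, adjusted p = 0.496) for rom1a and 0.19 (SE 0.18, adjusted p = 0.706) for rom1b. At 1 ppm rom1b had 242, 222 and 194 and at 10 ppm 198, 229 and 356, and rom1a had 372, 243 and 271 at 1 ppm and 250.4, 279 and 401 at 10 ppm. The 1 ppm values of rom1b were below all controls, with -0.32 (SE 0.18, adjusted p = 1.000). The gene prph2b had 1722, 1491 and 1213 in the control libraries, 1403, 1429 and 1218 at 1 ppm, 1642, 1493 and 1586 at 3 ppm, and 1369, 1185 and 1448 at 10 ppm, with overlap between control and each diet.

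There were 3 further genes of the cascade that stood in the table under names that the symbol rule does not reach; they were matched through RefSeq. The recoverin gene rcvrn3 (zgc:73075) had 2665, 3149.9 and 3666 in the control libraries, 1922, 2326 and 2734 at 1 ppm, 1942, 1416 and 2314 at 3 ppm, and 1899, 1507 and 1921 at 10 ppm. Its 3 and 10 ppm libraries were all below its control libraries. The log2 differences were -0.76 (SE 0.19, adjusted p = 0.382) at 3 ppm and -0.83 (SE 0.19, adjusted p = 0.525) at 10 ppm. Within control and within 1 ppm, library 1, of low clock score, was the lowest for rcvrn3. Its estimate without the libraries of high clock score is not given here. The inhibitory phosphodiesterase subunit gene pde6ga (zgc:112320) differed by 0.38 (SE 0.33, adjusted p = 0.879) and the channel gene cnga1a (si:dkey-22i16.2) by 0.27 (SE 0.23, adjusted p = 0.876) at 10 ppm. These 3 are not counted among the 45.

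Cone and rod forms of the same step were then compared within each library, which removes what both share. The log2 ratio of grk7a to grk1a was 1.70, 2.94 and 2.12 in the control libraries, 1.18, 2.17 and 2.26 at 1 ppm, 0.87, 0.74 and 0.85 at 3 ppm and 1.42, 0.90 and 0.73 at 10 ppm. It was below all controls at 3 and at 10 ppm, with differences of -1.43 (SE 0.37, exact p = 0.1) and -1.24 (SE 0.42, exact p = 0.1). The log2 ratio of slc24a2 to slc24a1 was 2.14, 3.45 and 3.47 in control, 2.01, 3.07 and 3.56 at 1 ppm, 2.01, 1.75 and 2.04 at 3 ppm and 1.61, 1.92 and 1.78 at 10 ppm. Again neither 3 nor 10 ppm overlapped with control, with -1.08 (SE 0.45, exact p = 0.1) and -1.25 (SE 0.45, exact p = 0.1), although control 1 lay only just above them. The log2 ratio of arr3a to saga was 2.58, 3.99 and 3.61 in control, 2.01, 3.70 and 3.48 at 1 ppm, 1.97, 2.01 and 2.49 at 3 ppm and 2.80, 1.99 and 1.96 at 10 ppm. It was lower without overlap at 3 ppm, with -1.24 (SE 0.45, exact p = 0.1), and overlapped at 10 ppm, with -1.15 (SE 0.50, exact p = 0.2). This result holds for saga only, since the ratio of arr3a to the more abundant rod arrestin gene sagb was not tested.

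The other 3 pairs overlapped with control at every diet. At 10 ppm the difference was -0.29 (SE 0.29, exact p = 0.6) for gnat2 to gnat1, 0.52 (SE 0.34, exact p = 0.3) for gngt2a to gngt1 and -0.08 (SE 0.25, exact p = 0.9) for cnga3a to cnga1. Two-sided exact permutation tests of 3 against 3 libraries cannot go below 0.1, so no pair could pass. Over the 24 pair tests the smallest Benjamini-Hochberg adjusted p was 0.48. In the 1 ppm libraries all 6 ratios overlapped with control, with exact p-values of 0.5 to 1. In each of the 3 pairs that were lower, 1 ppm library 1 was the lowest of its diet and control 1 the lowest of the controls, and both have a low clock score. Without the 4 libraries, so against control 1 alone and with no test, the difference at 10 ppm was -0.68 for grk7a to grk1a, -0.37 for slc24a2 to slc24a1 and -0.33 for arr3a to saga. It was -0.18 for gnat2 to gnat1, 0.09 for gngt2a to gngt1 and -0.09 for cnga3a to cnga1.

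**Figure D3:**
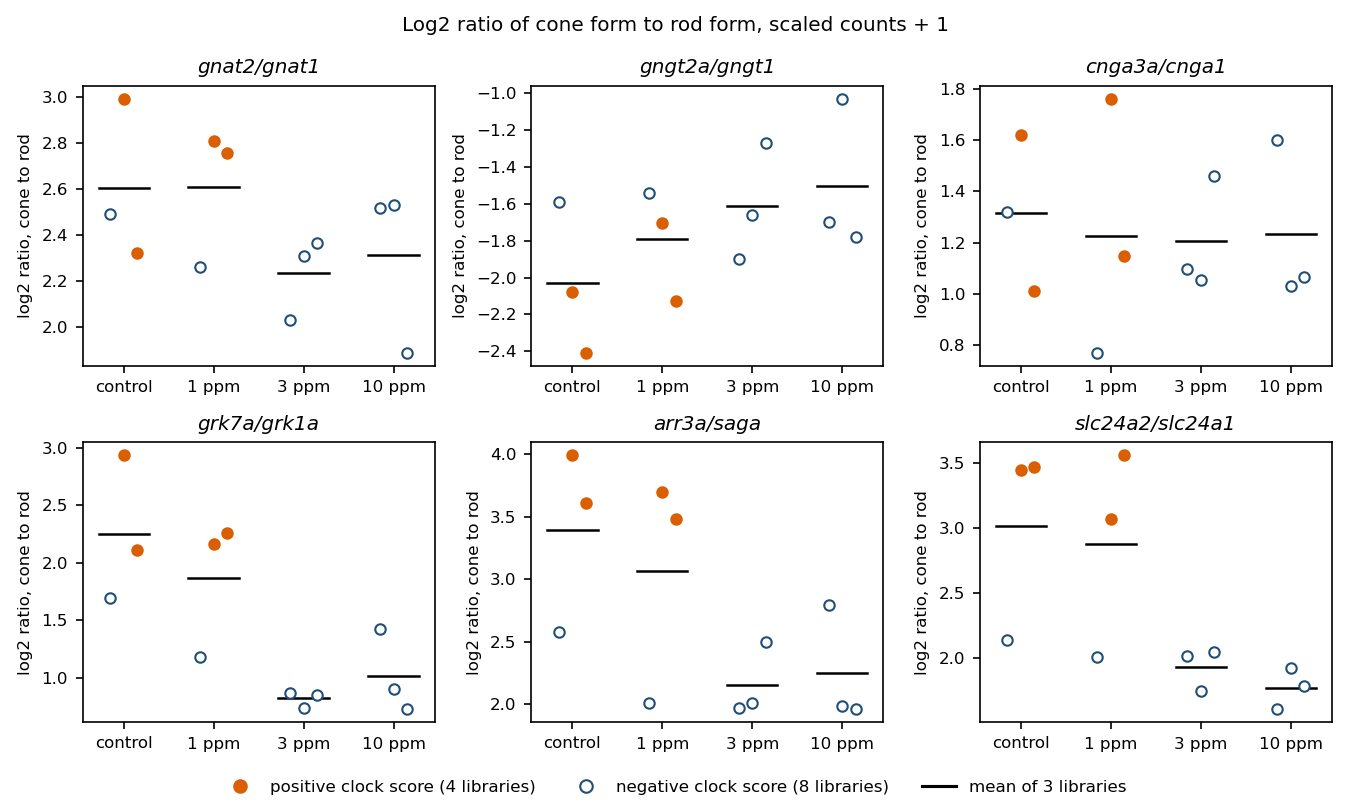
Log2 ratio of the cone form to the rod form of 6 functional pairs in each library, by parental diet, with lines at the mean of 3 libraries. Filled points are the 4 libraries with a positive clock score. For slc24a2 to slc24a1 all 4 filled points lie between 3.07 and 3.56 and all 8 open points between 1.61 and 2.14, and for gnat2 to gnat1 the 2 kinds of point overlap.

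The cone class median, and its difference from the rod median, showed the same division by library. Of the 13 cone forms, 6 were higher in every library of high clock score than in any other, and 1, gngt2a, was lower. The median over the 13 cone forms of the log2 value, centred on each gene's mean, was 0.83 and 0.66 in control 2 and 3 and 0.15 in control 1. In the 1 ppm libraries it was 0.23 and 0.21 in libraries 2 and 3 and -0.23 in library 1. It lay between -0.36 and -0.06 at 3 ppm and between -0.26 and -0.11 at 10 ppm. Cone minus rod medians were 0.54 to 1.01 in the 4 libraries of high clock score and -0.43 to 0.11 in the other 8, so these 2 sets of libraries did not overlap.

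Several genes divided the 12 libraries by the sign of the clock score. The 6 cone forms arr3a, grk7a, guca1c, guca1d, guca1g and slc24a2, together with irbp, were higher in each of the 4 libraries of high score than in any of the 8 others (7 of 45, against 3.86% of all genes). These are 6 of 13 cone forms, or 4 of 11 without guca1d and guca1g. The ratio of mean scaled counts in these 4 libraries to the other 8 was 3.22 for guca1c, 2.88 for arr3a and 2.49 for grk7a. There were 5 members lower in each of the 4 (3.3% of all genes), namely the rod genes cngb1a and slc24a1, the cone gene gngt2a, and prph2l and rcvrna. The 10 ppm differences of prph2l and rcvrna without the 4 libraries were -0.19 and -0.02, in place of 0.27 and 0.23. No rod form was among the 7. These libraries were set apart by clock genes and not by the cascade, and they hold only control and 1 ppm pools.

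The same division was also counted within diets, which reuses the same libraries. Libraries 2 and 3 of control and 1 ppm are those of high clock score, and library 1 of each is among the others. The 7 members higher and the 5 lower in every library of high score therefore recur here by construction. In both control and 1 ppm, 11 members were higher in each of libraries 2 and 3 than in library 1 (16.5% of all genes), among them 7 of 13 cone forms and 1 of 10 rod forms. There were 14 members lower in both (17.8% of all genes), among them 6 of 10 rod forms and 2 of 13 cone forms. The rod genes on the lower side were cngb1a, gnat1, gngt1, pde6a, pde6b and slc24a1, of which cngb1a and slc24a1 had to recur. Beyond the members that had to recur, the higher side held cnga3b, gc3, pdcb and sagb. The lower side then held gc2, gnat1, gnb3b, gngt1, pde6a, pde6b, prph2a, rgs9bp and rom1a.

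**Figure D4:**
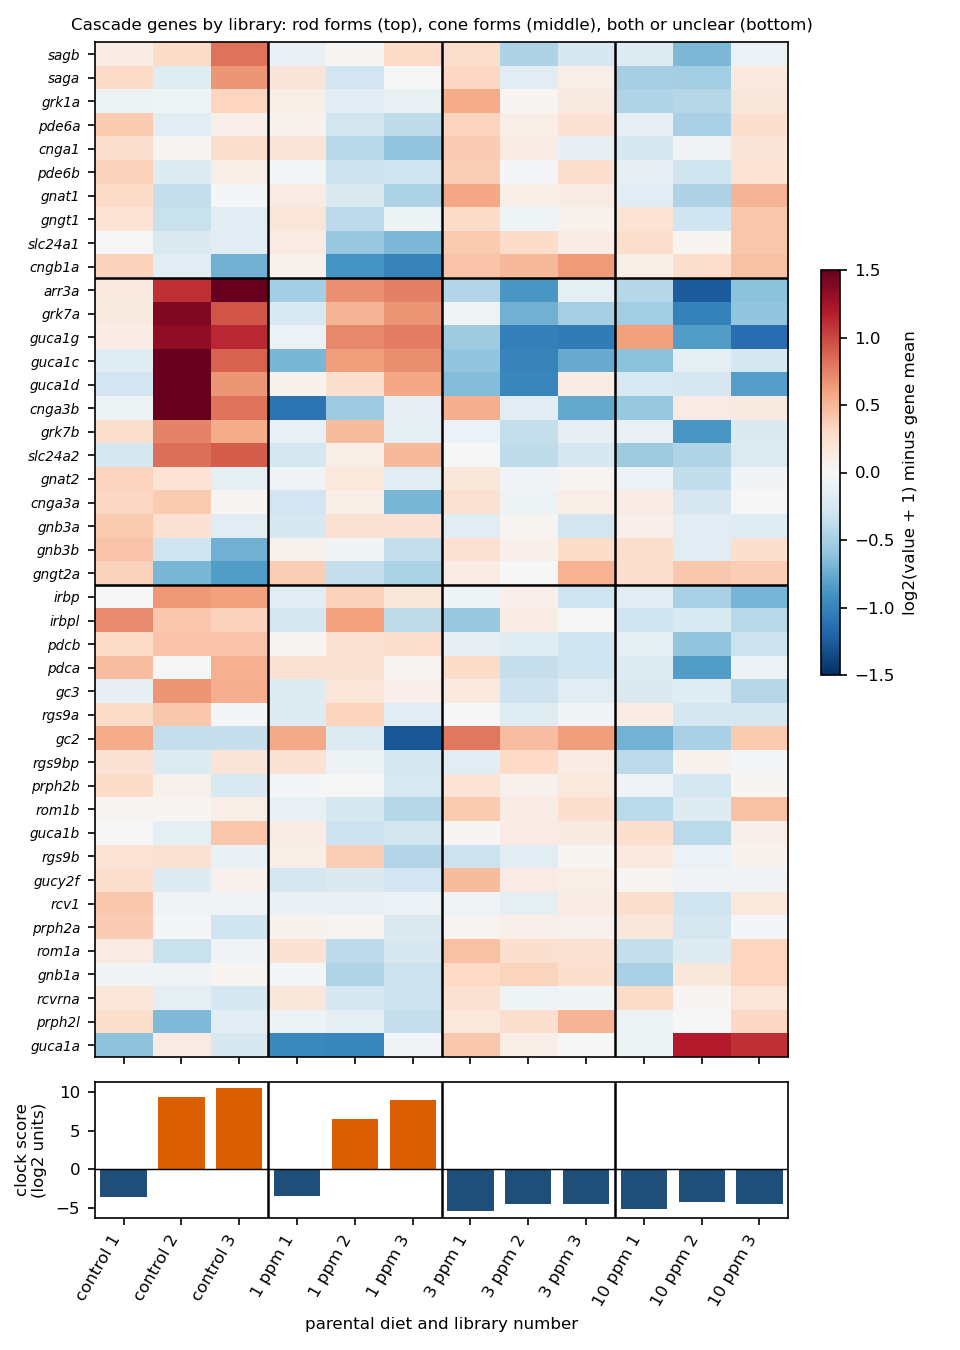
Log2(scaled count + 1) minus the gene's mean over 12 libraries for 43 cascade genes, with rod forms in the top block, cone forms in the middle and genes of both or unclear type at the bottom (colours stop at 1.5 on either side). The bars give the clock score of each library. The upper rows of the cone block are darkest red in control 2 and 3, where the score is 9.31 and 10.5, and lighter in 1 ppm 2 and 3. Control 1 is below control 2 and 3 in these rows, with a median over cone forms of 0.15. That median is -0.36 to -0.06 over the libraries of 3 and 10 ppm.

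Without the 4 libraries of high clock score, the cone and rod medians at 10 ppm lay close together. The median log2 difference at 10 ppm, against control 1 alone, was then -0.35 for cone forms and -0.30 for rod forms. Over all genes the median was 0.00. Below 0 were 13 of 13 cone forms and 9 of 10 rod forms, but control 1 enters each of these signs. Its own class medians, centred on each gene's mean, were 0.26 for rod forms, 0.15 for cone forms and 0.24 for genes of both or unclear type. At 3 ppm the median difference was -0.28 for cone forms and -0.11 for rod forms. With the clock score as a covariate in all 12 libraries the medians at 10 ppm were -0.36 for cone and -0.42 for rod forms. For other single genes, the difference at 10 ppm without the 4 libraries was -0.64 for pdcb and -0.33 for gnat1, and no member passed.

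Control 1 decided the other way. Leaving out that library alone, so that both remaining controls had a high clock score, 4 members passed at 10 ppm against control, namely pdcb, grk7a, slc24a2 and irbp. The differences were then -1.88 for grk7a (adjusted p = 0.0263) and -1.27 for slc24a2 (adjusted p = 0.0263). For irbp it was -1.08 (adjusted p = 0.0421) and for pdcb -0.78 (adjusted p = 0.0493). Over all genes, 41 then passed at 10 ppm in place of 0.

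The comparison of 10 ppm with 3 ppm holds 6 libraries that all have a low clock score and shares no control library. No member passed (0.0163% of all genes), and 1 was past the unadjusted threshold, the rod kinase gene grk1a, against 3.77% of all genes. The gene had 174, 178 and 269 at 10 ppm and 354, 243 and 263 at 3 ppm, with overlap and a difference of -0.48 (SE 0.19, adjusted p = 1.000). Estimates were below 0 for 33 of 45 members (48.0% of all genes), among them 9 of 10 rod forms and 7 of 13 cone forms. The median log2 difference was -0.26 for rod forms, -0.08 for cone forms and 0.01 for all genes. The 3 members gc2, gucy2f and prph2b were lower without overlap (4.42% of all genes), and none was higher (6.54%).

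At 1 ppm against control the estimates were mostly of 1 sign, and ranged down to -1.41 for cnga3b and -0.69 for guca1c. They were below 0 for 41 of 45 members (51.8% of all genes), with medians of -0.29 for rod forms, -0.39 for cone forms and -0.22 for genes of both or unclear type. These 2 diets each hold 1 library of low and 2 of high clock score. The high scores were 9.31 and 10.5 in control but 6.46 and 8.90 at 1 ppm, so clock state was not fully matched between them. There were 5 members lower without overlap, cnga3b, gucy2f, pdcb, rcv1 and rom1b (2.77% of all genes), and none was higher (3.26%). Estimates were below 0 for 24 of 45 members at 3 ppm (50.6% of all genes) and for 34 of 45 at 10 ppm (47.5%), and slopes were below 0 for 30 of 45 (48.1%). At 3 ppm, 8 members were lower without overlap (9.45% of all genes) and 5 higher (8.27%). At 10 ppm, 9 were lower (4.81%) and 1 higher (5.55%), the higher one being slc24a1.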

How the data were processed

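RNA-seq was carried out by the authors on 12 pools of 5 whole embryos. Per the labels' protocols, TruSeq libraries were read as paired ends of 100 bases, and the submitters' processing notes name TopHat, Cuffnorm, cutadapt, FastQC and CASAVA 1.8.2 and the build Zv9. What each tool did, with which settings and annotation, and whether strand was used is not given in the sources used here. A deposited table named for counts holds a signal that the authors had already scaled between libraries, called scaled counts here, with totals that are nearly equal, and the deposited FPKM table holds the authors' length-corrected values. Between 98.0% and 98.7% of low scaled values (below 50 fragments) were whole multiples of 1 fragment's worth within 0.02 steps, which gave depths of 5.63 to 11.8 M fragments. The lowest values were not whole throughout, so no count test was the primary test. Depth and pool number limit the precision of low genes such as guca1d.

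Log2(scaled count + 1) of 18390 genes whose mean reached 10 was fitted with limma 3.58.1 (R 4.3.3), in 1 fit over 12 libraries with a mean-variance trend and robust moderation. P-values were two-sided and adjusted by Benjamini-Hochberg over all genes, with a threshold of 0.05. The slope used the ranks of the diets. Pairs used exact permutation tests. Ratios and medians were computed with Python 3.11.15 and pandas 2.3.3, and figures with matplotlib 3.10.9. The fit was tested on simulated data. Members, rod and cone classes and lists were chosen with earlier results of these data known. Full values were given for members that passed, for both genes of each pair and for the 6 smallest p in each test. Other members are given by estimates and ranges. No reference sequence was used. Paralogues with near-identical sequence could share reads, and how such reads were assigned is not given.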

Additional observations from a re-analysis of the deposited data

How the results depend on the processing

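Calls rested on few libraries. Members passing at 10 ppm numbered 0 under each alternative except without control replicate 1, where there were 4, so that leaving out 1 library gave 0 to 4. At 1 ppm, at 3 ppm, at 10 against 3 ppm and in the F-test the number was 0 throughout. The trend passed 1 member, pdcb, and kept it with a pseudocount of 5 and with limma-voom. It passed 0 with no filter, with a minimum mean of 50, on FPKM with pseudocounts 0.1 and 1, with a clock score covariate, without the 4 libraries of high clock score, with dose in ppm and with log2(ppm + 1), and leaving out 1 library gave 0 to 7, the 7 again without control replicate 1. Over all genes, the trend without control replicate 1 passed 146 of 18390, against 4 with all 12 libraries. The cause was not tested.

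Replicate numbers did not pair the libraries over all diets: of 18 same-numbered pairs, 6 had deviations correlated above 0.1, with a median of -0.01. The highest correlations were between control 1 and 1 ppm 1 (0.47) and between control 3 and 1 ppm 3 (0.44). For control 2 and 1 ppm 2 the correlation was -0.11, and for pairs of different number the maximum was 0.27. With the replicate number as a block the trend passed 0 members, pdcb having an adjusted p of 0.0796, and no other count of members moved.

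Over single libraries left out, the cone median ranged from -0.76 to -0.15 at 1 ppm, from -1.07 to -0.52 at 3 ppm and from -1.27 to -0.62 at 10 ppm. The lowest was without control replicate 1 at each diet. With a minimum mean of 50, which leaves out the low cone genes, the cone median was -0.28 at 3 ppm and -0.30 at 10 ppm. With the clock score as a covariate it was -0.29 and -0.36, and without the 4 libraries -0.28 and -0.35. The rod median at 3 ppm changed sign, to -0.16 with the covariate and -0.11 without the 4 libraries.

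The difference in cnga3a to cnga1 at 10 ppm was 0.015 on FPKM with pseudocount 0.1, and -0.27 to 0.0671 with 1 library left out. Other ratios whose sign turned when 1 library was left out were near 0: cnga3a to cnga1 at 3 ppm (-0.27 to 0.0394) and 1 ppm (-0.36 to 0.14), and at 1 ppm gnat2 to gnat1 (-0.13 to 0.20), arr3a to saga (-0.74 to 0.20) and slc24a2 to slc24a1 (-0.58 to 0.30). In an alternative added after seeing the data, without the 4 libraries, gnat2 to gnat1 at 1 ppm was -0.23 and gngt2a to gngt1 at 3 ppm was -0.0188, both of changed sign. Cone medians without guca1d and guca1g, also added afterwards, stayed within 1 SD of the spread between libraries. edgeR and DESeq2 were not run, since whole fragments could not be recovered for all low values.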

Other observations

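Other genes of the visual system were read from lists by the same fit, and none passed at 1, 3 or 10 ppm against control. Of 7 opsins tested, 3 had estimates below 0 at 10 ppm (47.5% of all genes) and the median was 0.15. At an unadjusted limma p below 0.05 were 3 of the 7 at 10 ppm, against 5.71% of all genes. At 3 ppm 0 of the 7 were below 0 (50.6% of all genes), with a median of 0.36. The red cone opsin gene opn1lw1 had 163, 39.9 and 14.3 in the control libraries, 184, 92.9 and 45.6 at 1 ppm, 190.2, 255 and 262 at 3 ppm, and 423, 179 and 364 at 10 ppm scaled counts, with a difference of 2.69 (SE 0.78, limma adjusted p = 0.713) at 10 ppm. Its 4 libraries of high clock score were the 4 lowest, the opposite order to arr3a, although both are cone genes. The rod opsin gene rho had 5135, 5667 and 11067 at 10 ppm and 8080.1, 7994 and 9803 in control libraries, which overlapped.

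Of 13 bipolar cell markers tested, 8 had estimates below 0 at 10 ppm (47.5% of all genes), with a median of -0.37. At an unadjusted limma p below 0.05 were 7 of the 13, pcp4l1 among them, against 5.71% of all genes. Estimates were above 0 for 5, among them pcp4l1 at 0.58 (SE 0.22, limma adjusted p = 0.822). The marker cabp5b had -1.51 (SE 0.45, limma adjusted p = 0.713). It was higher in each library of high clock score than in any other library. The summed scaled count of the list was 1371 to 1609 at 10 ppm and 1742 to 1956 in control. The GABA receptor gene gabrr1 had 39.5, 83.9 and 55.6 in the control libraries, 20.4, 70.1 and 37.4 at 1 ppm, 13.3, 25.1 and 15.2 at 3 ppm, and 12.4, 10.5 and 8.54 at 10 ppm. All its 10 ppm values were below all controls, with a difference of -2.35 (SE 0.40, limma adjusted p = 0.202). Its trend passed (slope -0.81, limma adjusted p = 0.0426). The trend also passed for 1 of 43 clock genes and 1 of 7 Müller glia markers tested. When the clock score was added to the fit, the trend passed 0 of 18390 genes, so this says nothing particular about these lists. Without the 4 libraries of high clock score only 1 control is left, so that fit cannot decide whether these trends hold. Of 9 markers of the retinal pigment epithelium tested, 9 had estimates below 0 at 10 ppm (47.5% of all genes). The list summed to 476 to 1375 at 10 ppm and to 379.6 to 3299 in control. The retinoid isomerase gene rpe65a had 93.4, 66.2 and 22.8 at 10 ppm and 13.2, 638 and 766 in control, with control 1 the lowest of the 6. Lens markers summed to 10714 to 15398 at 10 ppm and 9853 to 14736 in control. The part of these cell types in the cascade values was not tested.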
